A study of Jaltomata procumbens and Jaltomata herrerae with 23 samples.

Results

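SWEET proteins are sugar carriers of plant membranes, and the genes described here are the 10 Arabidopsis SWEET loci listed for this purpose. They are SWEET9 (AT2G39060), SWEET11 (AT3G48740), SWEET12 (AT5G23660), SWEET10 (AT5G50790), SWEET13 (AT5G50800), SWEET14 (AT4G25010), SWEET15 (AT5G13170), SWEET1 (AT1G21460), SWEET2 (AT3G14770) and SWEET17 (AT4G15920). The members are a list of locus identifiers, fixed with earlier results of these data known. Of these, 10 of 10 had a row among the 13170 Arabidopsis loci of the deposited table. The species sequenced were Jaltomata herrerae and Jaltomata procumbens, nectar-producing relatives of tomato, so each row holds the Jaltomata transcripts that the submitters assigned to that Arabidopsis locus. How transcripts were assigned, and whether several were summed into 1 row, is not given in the sources used here. Close paralogs such as SWEET11 and SWEET12, or SWEET13 and SWEET14, may therefore share or exchange transcripts between rows.

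The plants carried no labelled mutation, transgene or treatment, and the groups differ in species, tissue and floral stage. The libraries of J. herrerae used here came from nectaries before secretion (24 to 48 h before the flower opened, 3 libraries), during secretion (open flowers 3 to 6 h after dawn, 3) and after the petals had dropped (3), and from full-grown leaves (2). The libraries of J. procumbens came from the same nectary stages (3, 2 and 2) and leaves (2). The J. procumbens libraries labelled A of the pre-secretory, post-secretory and leaf groups, 3 in all, were left out, and values with them stand beside the calls and the differences they move most. Nectaries were cut out by hand, plant ages are not given, and the labels do not say that replicates came from separate plants, and p-values therefore speak only of the spread among these libraries, which may be technical.

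As background, SWEET carriers are uniporters: they let sugar flow down its gradient across a membrane and need no proton gradient. The clade with SWEET9 to SWEET15 mainly moves sucrose out of cells across the plasma membrane, SWEET1 and SWEET2 belong to a clade that mainly carries hexoses, and SWEET17 sits in the vacuole membrane and carries fructose. In Arabidopsis and tobacco, nectaries make sucrose from stored starch and SWEET9 releases it to the cell wall space, where invertase can split it into hexoses.

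Values are TPM, a relative level per transcript length, which the submitters rounded to whole numbers. Tests were run on log2(rescaled TPM + 1) with limma, where rescaling divides each library by its median ratio to the other libraries, and a locus was called at a Benjamini-Hochberg adjusted p under 0.05 over all 13075 loci tested. Each locus has 1 spread over all 8 groups, so a test within J. herrerae also carries the spread among J. procumbens libraries, and the reverse. TPM keeps no read depth. Rounding makes values of a few TPM coarse.

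The 3 libraries left out lay nearer another group than their own. Pre-secretory A correlated with J. herrerae leaf at r = 0.886 against 0.463 with its own group, post-secretory A with J. procumbens secretory nectary at 0.976 against 0.823, and leaf A with J. procumbens post-secretory nectary at 0.936 against 0.711. Of the 20 libraries used, 19 lay nearest their own group. The exception was J. procumbens pre-secretory C, at 0.955 with the secretory group against 0.935 with its own. All 3 nectary markers were present: CRC (a transcription factor needed for nectaries), MYB21 and SHP2. They summed to 1524 to 3531 TPM in J. herrerae secretory nectaries and 2069 to 2378 TPM in those of J. procumbens, where SHP2 was listed at 0. Leaf markers (RBCS1A, RBCS1B, CAB1, RCA and PSBP1) summed to 79266 to 115523 TPM in J. herrerae leaves and 42557 to 67193 TPM in J. procumbens leaves. In pre-secretory nectaries they summed to 117 to 207 TPM in J. procumbens and to an uneven 234 to 5856 TPM in J. herrerae. The latter reached into the J. herrerae post-secretory range of 3338 to 8411 TPM. The part of leaf RNA in the changes at the start of secretion was not tested.

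During secretion most of the SWEET signal of the nectary came from SWEET9, joined in J. herrerae by SWEET11. In the 3 J. herrerae secretory libraries the 10 loci summed to 11929, 16077 and 21154 TPM, or 2.2 to 3.51% of all listed TPM. SWEET9 held 58.1 to 69.5% of that sum and SWEET11 held 29.1 to 40.4%. In the 2 J. procumbens secretory libraries they summed to 29069 and 36987 TPM, or 4.17 and 5.04% of all listed TPM. There SWEET9 alone held 98.2 and 98.5% of the sum and was the highest of all 13170 loci, while SWEET11 held 0.124 and 0.0568%. In leaves the sum was 541 and 1126 TPM in J. herrerae, and 166 and 212 TPM in J. procumbens.

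**Figure D1:**
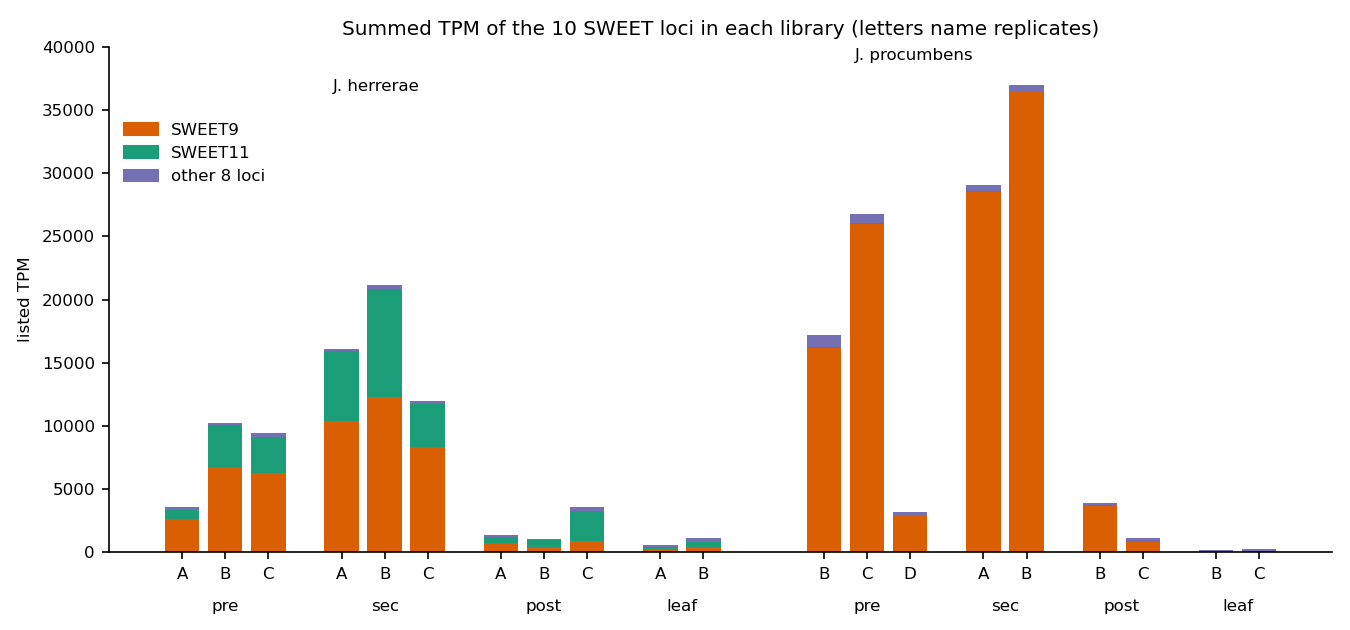
Summed TPM of the 10 SWEET loci in each of the 20 libraries, split into SWEET9, SWEET11 and the other 8 loci (vertical axis, listed TPM; letters under the bars are replicates, grouped by stage and species). The tallest bars are the J. procumbens secretory libraries at 29069 and 36987 TPM, almost all SWEET9, while SWEET11 is a visible part of the bars only in J. herrerae.

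SWEET9, the nectary sucrose exporter, was present in every library used. In J. herrerae it stood at 2578, 6740 and 6283 TPM before secretion, at 10399, 12296 and 8289 TPM during it, at 731, 396 and 850 TPM after it and at 218 and 424 TPM in leaves. In J. procumbens it stood at 16197, 26019 and 2904 TPM before secretion, 28548 and 36418 TPM during it, 3656 and 806 TPM after it and 28 and 11 TPM in leaves. In both species the secretory libraries were above every library of the other stages and the leaf libraries used. The pre-secretory libraries of J. procumbens were the most uneven, with replicate D far below B and C.

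The fall of SWEET9 at the end of secretion passed the test in both species. It fell by 4.93 on the log2 scale in J. herrerae (SE 0.73, adjusted p = 4.09e-05 from limma, n = 3 and 3), which is 30.5-fold. For J. procumbens the fall was 4.63 (SE 0.89, adjusted p = 0.000979 from limma, n = 2 and 2), or 24.8-fold, and the difference between the species in this change was -0.29 (95% interval -2.73 to 2.15, adjusted p = 0.884). On TPM as deposited the falls were 16.2-fold in J. herrerae and 18.8-fold in J. procumbens, and both were called. With all 23 libraries the J. herrerae fall had an adjusted p of 0.0503. The J. procumbens change was then -2.90 with an adjusted p of 0.571, and the difference between the species was -2.02 (0.79). The left-out library labelled post-secretory A had 42648 TPM.

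The higher SWEET9 level at the start of secretion did not pass the test in either species. The change was 1.55 in J. herrerae (SE 0.73, adjusted p = 0.113 from limma, n = 3 and 3), with no overlap between the stages. The J. procumbens change was 1.84 (SE 0.81, adjusted p = 0.0897 from limma, n = 2 and 3). The J. herrerae change passed when only the compared groups were fitted (adjusted p = 0.0353) and when J. procumbens pre-secretory D was left out (0.0318). It was 2.55 in J. procumbens and passed without pre-secretory C (0.0173), the library that lay nearer the secretory group. Over all 23 libraries the change was 1.55 in J. herrerae (adjusted p = 0.694) and 3.06 in J. procumbens (0.34).

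Against leaves, SWEET9 was higher in secretory nectaries of both species. The log2 change was 5.43 in J. herrerae (43.2-fold, SE 0.81, adjusted p = 3.59e-05 from limma, n = 3 and 2) and 10.33 in J. procumbens (1285-fold, SE 0.89, adjusted p = 2.36e-07 from limma, n = 2 and 2). On TPM as deposited the changes were 33.4-fold in J. herrerae and 1728-fold in J. procumbens, and both were called. Both calls stood over all 23 libraries, which include a library labelled leaf A at 7042 TPM (J. herrerae 5.43, adjusted p = 0.0488, and J. procumbens 7.73, adjusted p = 0.0246).

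Leaves were also where SWEET9 differed between the species. It was 4.29 higher on the log2 scale in J. herrerae leaves than in J. procumbens leaves (19.5-fold, SE 0.89, adjusted p = 0.00128 from limma, n = 2 and 2). Over all 23 libraries the difference was 1.69 and not called (adjusted p = 0.618). Of the 3 nectary markers, CRC moved with it, at 66 and 127 TPM in J. herrerae leaves against 5 and 4 TPM in J. procumbens leaves. It made up most of the marker sums, 68 to 128 TPM in J. herrerae leaves and 4 to 5 TPM in J. procumbens leaves. MYB21 averaged 0.5 TPM in J. herrerae leaves and was listed at 0 in those of J. procumbens. SHP2 was listed at 0 in every J. procumbens group used, nectaries included, so its 0 in leaves is not informative. In J. herrerae, the leaf level of SWEET9 was 3.11% of its secretory level, against 4.09% for CRC, 4.89% for SWEET11 and 1.49% for MYB21. In J. procumbens the leaf level was 0.06% for SWEET9 and 0.204% for CRC. The part of nectary or other floral RNA in the leaf libraries was not tested. In bulk tissue, fewer cells of a type and less RNA per cell cannot be told apart.

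In nectaries, J. herrerae had lower listed SWEET9 values than J. procumbens during secretion, but the rescaled difference was -0.61 (95% interval -2.33 to 1.12, adjusted p = 0.568). On TPM as deposited it was -1.66 (adjusted p = 0.0673). Before secretion the rescaled difference was -0.32 (95% interval -1.86 to 1.22, adjusted p = 0.743), and after it -0.90 (-2.63 to 0.82, adjusted p = 0.384). Over all 23 libraries it was 0.91 before secretion, with the sign turned (adjusted p = 0.774), -0.60 during it (0.885) and -2.62 after it (0.297).

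SWEET11, which in Arabidopsis leaves releases sucrose for loading into the phloem, was the member with the widest gap between the species in nectaries among those detected in both. In J. herrerae it had 735, 3334 and 2863 TPM before secretion, 5548, 8540 and 3467 TPM during it, 461, 541 and 2398 TPM after it and 179 and 393 TPM in leaves. The J. procumbens values were 55, 28 and 20 TPM before, 36 and 21 TPM during and 48 and 94 TPM after secretion, and 17 and 56 TPM in leaves. Every J. herrerae library was above every J. procumbens library used.

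The SWEET11 difference between J. herrerae and J. procumbens was 6.70 on the log2 scale before secretion (104-fold, SE 0.64, adjusted p = 4.2e-07 from limma, n = 3 and 3). During secretion it was 8.63 (395-fold, SE 0.72, adjusted p = 9.19e-08 from limma, n = 3 and 2). After secretion it was 4.17 (18-fold, SE 0.72, adjusted p = 0.000231 from limma, n = 3 and 2). The leaf difference was 3.30 (9.87-fold, SE 0.79, adjusted p = 0.00359 from limma, n = 2 and 2), and it was not called without J. procumbens leaf B (0.0646) or with all 23 libraries (0.0762). The 3 nectary differences were called with all 23 libraries as well, at 5.45, 8.63 and 4.23. They were also called on TPM as deposited, at smaller folds of 59.1 before, 192 during and 12.4 after secretion.

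Within J. herrerae, SWEET11 rose by 1.97 at the start of secretion (SE 0.64, adjusted p = 0.0276 from limma, n = 3 and 3). This call was lost without pre-secretory A (0.119), without secretory B (0.0966), with all 23 libraries (0.274) and on TPM as deposited (1.52, 0.0938). At the end it fell by 3.61 (12.2-fold, SE 0.64, adjusted p = 0.000216 from limma, n = 3 and 3), and secretory nectaries were 4.73 above leaves (26.6-fold, SE 0.72, adjusted p = 4.24e-05 from limma, n = 3 and 2). On TPM as deposited the fall was 6.49-fold and the difference from leaves 20.6-fold, and both were called. Post-secretory C, at 2398 TPM, was well above post-secretory A and B but below every secretory library. In J. procumbens none of the changes of SWEET11 was called: 0.05 at the start, 0.85 at the end and -0.59 against leaves. They were -1.20 with all 23 libraries (adjusted p = 0.496), 0.81 (0.82) and -0.78 (0.655). The change at the end of secretion differed between J. herrerae and J. procumbens by -4.46 (SE 1.02, adjusted p = 0.00662 from limma), or by -4.40 with an adjusted p of 0.159 over all 23 libraries.

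SWEET9 and SWEET11 thus stood in different ratios. SWEET9 was 1.44 to 2.39 times SWEET11 in J. herrerae secretory libraries, against 793 and 1734 times in J. procumbens secretory libraries. In the post-secretory nectaries of J. herrerae the ratio was 0.354 to 1.59, with SWEET11 above SWEET9 in replicates B and C.

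**Figure D2:**
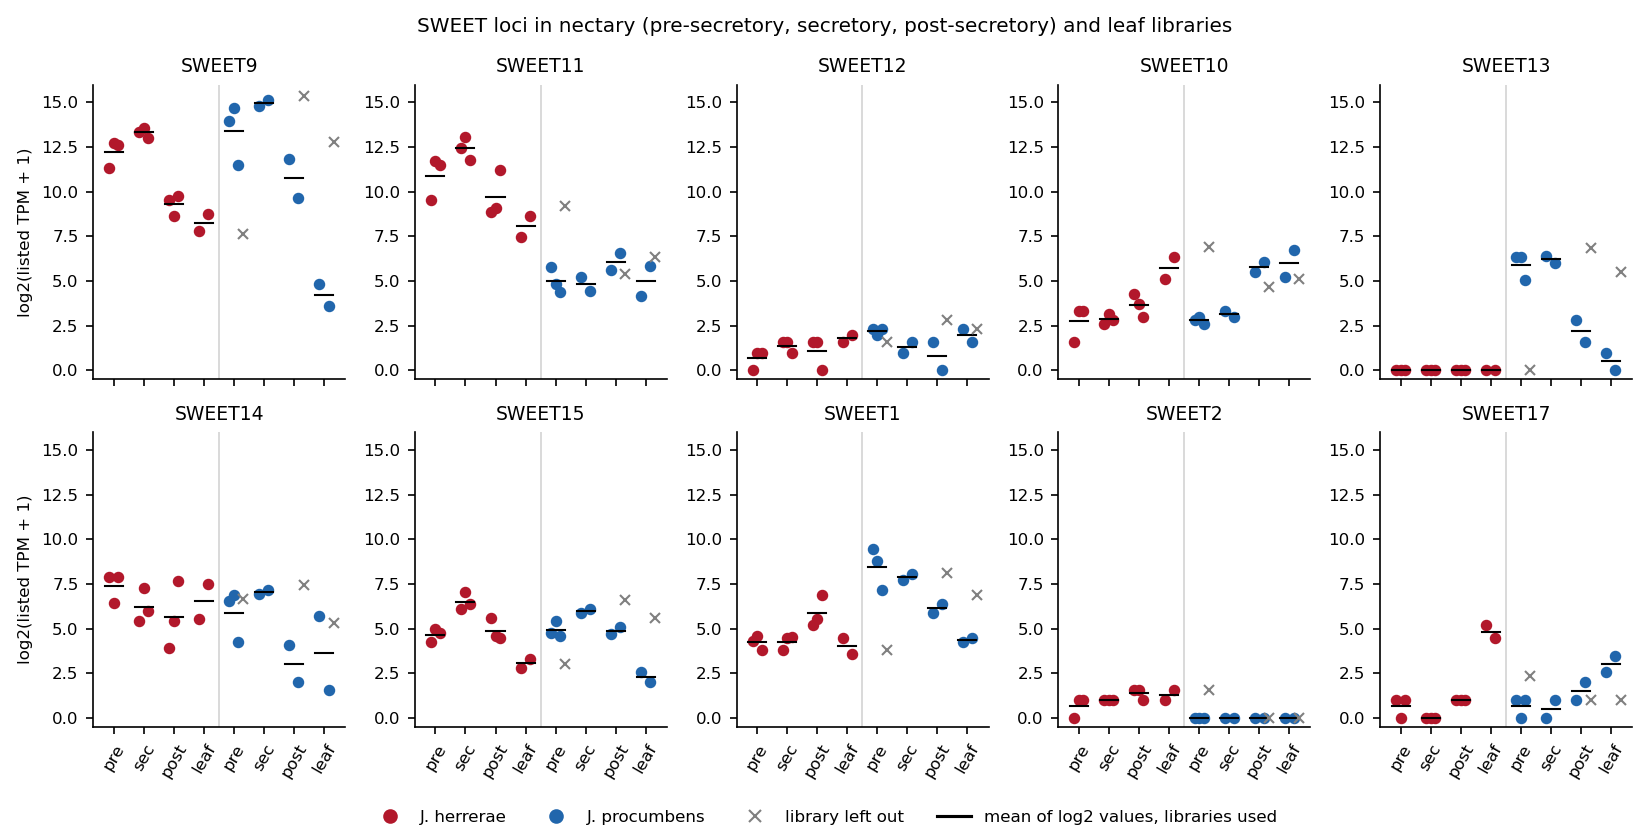
Level of each SWEET locus by library, as log2(listed TPM + 1), with J. herrerae in red on the left and J. procumbens in blue on the right of each panel (pre, sec and post are the nectary stages). Points are libraries, black lines are means of the log2 values over the libraries used, and grey crosses are the 3 libraries left out. SWEET9 peaks in the secretory stage in both species, SWEET11 is higher in J. herrerae than in the J. procumbens libraries used, SWEET13 is listed at 0 in all J. herrerae libraries and SWEET10 and SWEET17 are highest in leaves.

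SWEET15, a sucrose carrier that Arabidopsis uses in seeds and that is also known as a senescence-associated gene, was highest in secretory nectaries and lowest in leaves in both species. J. herrerae had 18, 30 and 26 TPM before, 67, 132 and 81 TPM during and 47, 23 and 21 TPM after secretion, with 6 and 9 TPM in leaves. J. procumbens had 26, 42 and 23 TPM before, 58 and 67 TPM during and 25 and 33 TPM after secretion, with 5 and 3 TPM in leaves. The secretory libraries and the leaf libraries did not overlap the other stages, while pre-secretory and post-secretory libraries overlapped.

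SWEET15 rose by 2.31 at the start of secretion in J. herrerae (SE 0.36, adjusted p = 0.000268 from limma, n = 3 and 3) and fell by 2.52 at its end (SE 0.36, adjusted p = 3.3e-05). Both calls stood with all 23 libraries (0.0413 and 0.0103). In J. procumbens it rose by 1.29 (SE 0.40, adjusted p = 0.0225 from limma, n = 2 and 3). That rise was not called without pre-secretory B (0.0655), pre-secretory D (0.0924), secretory A (0.0808) or secretory B (0.123), with the compared groups alone (0.0589) or with all 23 libraries (0.184). It fell by 1.47 after secretion (SE 0.44, adjusted p = 0.0162 from limma, n = 2 and 2). This fall was not called without secretory A (0.0572), secretory B (0.0821) or post-secretory B (0.0961), on TPM as deposited (-1.09, 0.0537) or with all 23 libraries (-0.71, 0.73). Secretory nectaries were above leaves by 3.84 in J. herrerae (adjusted p = 1.07e-06 from limma) and 3.29 in J. procumbens (adjusted p = 1.57e-05), and both calls stood with all 23 libraries. During secretion J. herrerae was 1.56 above J. procumbens (adjusted p = 0.00482 from limma), but 0.52 above on TPM as deposited (adjusted p = 0.255) and not called over all 23 libraries (0.143). The leaf difference was 1.01 (0.0835), was called without J. herrerae post-secretory A (0.0467) and was 0.14 over all 23 libraries (0.919).

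SWEET13 and SWEET14, sucrose carriers that Arabidopsis uses in anthers and that can also carry gibberellin, differed from each other. SWEET13 was listed at 0 in all 11 J. herrerae libraries, so no fold is given. In J. procumbens it had 80, 80 and 32 TPM before, 85 and 64 TPM during and 6 and 2 TPM after secretion, and 1 and 0 TPM in leaves. It fell by 4.24 at the end of secretion (SE 0.44, adjusted p = 1.3e-05 from limma, n = 2 and 2) and was 5.42 higher in secretory nectaries than in leaves (SE 0.44, adjusted p = 1.51e-07 from limma). Neither was called over all 23 libraries (0.513 and 0.0755). The 11 J. herrerae zeros enter the spread of this locus without any variation. The SE and p-values of these tests can therefore be too small for the spread among the J. procumbens libraries. It passed the filter on low values through J. procumbens alone, so no test between the species is given. A row at 0 can also mean that no J. herrerae transcript was assigned to this locus.

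SWEET14 was uneven among replicates. J. herrerae had 239, 84 and 238 TPM before, 42, 154 and 62 TPM during and 14, 42 and 202 TPM after secretion, and 45 and 183 TPM in leaves, so all its groups overlapped. J. procumbens had 92, 119 and 18 TPM before, 122 and 145 TPM during and 16 and 3 TPM after secretion, and 52 and 2 TPM in leaves. Its one call was a fall by 4.30 after secretion in J. procumbens (SE 1.38, adjusted p = 0.0223 from limma, n = 2 and 2), lost without secretory A (0.0814), secretory B (0.0901) or post-secretory C (0.164) and with all 23 libraries (0.455). Several SWEET14 differences were called in some settings. Secretory nectary against leaf in J. procumbens was 3.02 (adjusted p = 0.0711), 4.99 without leaf B (0.0122) and 3.41 on TPM as deposited (0.0252). J. herrerae against J. procumbens was 3.15 in leaves (0.0826) and 5.14 without J. procumbens leaf B (0.0186). Before secretion it was 2.33 (0.101) and 3.12 without J. herrerae pre-secretory B (0.0492). After secretion it was 3.05 (0.0586), and it was called without J. herrerae post-secretory A (0.0288), J. procumbens pre-secretory D (0.0469), leaf B (0.0368) or leaf C (0.0368). None of these was called over all 23 libraries: 2.70 for J. procumbens secretory nectary against leaf (0.182), and 2.84 in leaves (0.216), 1.95 before (0.311) and 1.45 after secretion (0.434) for J. herrerae against J. procumbens.

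SWEET10, a sucrose carrier that in Arabidopsis responds to flowering signals in the shoot tip, was a leaf-high member. J. herrerae had 2, 9 and 9 TPM before, 5, 8 and 6 TPM during and 18, 12 and 7 TPM after secretion, against 33 and 80 TPM in leaves. J. procumbens had 6, 7 and 5 TPM before, 9 and 7 TPM during and 45 and 66 TPM after secretion, against 36 and 107 TPM in leaves. Secretory nectaries were below leaves by a log2 change of -2.57 in J. herrerae (SE 0.57, adjusted p = 0.00112 from limma) and -3.22 in J. procumbens (SE 0.62, adjusted p = 0.000375). Neither was called over all 23 libraries (0.0777 and 0.0778).

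After secretion SWEET10 rose by 2.21 in J. procumbens (SE 0.62, adjusted p = 0.0111 from limma, n = 2 and 2), to levels that overlapped those of leaves, and changed by -0.01 in J. herrerae (adjusted p = 1). The J. procumbens rise was not called without secretory B (0.0663), without post-secretory C (0.0816) or with all 23 libraries (0.448). The species difference in this change was -2.22 (SE 0.80, adjusted p = 0.061 from limma). It was called without J. herrerae pre-secretory A (0.0494) or post-secretory A (0.0405), without J. procumbens leaf B (0.0385) or C (0.0384) and with the compared groups alone (0.0256). J. herrerae was lower than J. procumbens after secretion by a log2 difference of -1.59 (SE 0.57, adjusted p = 0.0303). That call was lost without J. herrerae post-secretory B (0.0591) or C (0.115), without J. procumbens post-secretory B (0.0641) or C (0.166) and with all 23 libraries (0.302). Leaf markers were also higher in post-secretory than in secretory nectaries: they summed to 3338 to 8411 against 129 to 295 TPM in J. herrerae, and to 1155 to 1713 against 140 to 212 TPM in J. procumbens. The nectary markers summed to 180 to 342 against 1524 to 3531 TPM in J. herrerae and to 156 to 422 against 2069 to 2378 TPM in J. procumbens. Their part in the changes after secretion was not tested.

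SWEET12, which acts beside SWEET11 in Arabidopsis leaves, was near the rounding step, at 0 to 3 TPM in J. herrerae and 0 to 4 TPM in J. procumbens. It was called higher at the start of secretion in J. herrerae (1.67 ± 0.577 against 0.667 ± 0.577 TPM, SD, n = 3 each; log2 change 1.19, adjusted p = 0.0382 from limma). The call was lost without pre-secretory A (0.17), pre-secretory B (0.061), secretory A (0.0818), B (0.0995) or C (0.0582), on TPM as deposited (0.72, 0.242), with a pseudocount of 0.1 (0.122) and with all 23 libraries (0.182). J. herrerae was lower than J. procumbens before secretion (-1.11, adjusted p = 0.0373 from limma). That call was lost without J. herrerae pre-secretory A (0.169) or B (0.0561), or without J. procumbens pre-secretory B (0.09), C (0.0578) or D (0.0748). It was also lost with a pseudocount of 0.1 (0.113) and with all 23 libraries (0.132). The SWEET12 change at the end of secretion in J. herrerae was -0.87 (0.0851) and was called without post-secretory A (0.0455).

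Among the members outside the sucrose clade, SWEET1, a plasma membrane glucose carrier in Arabidopsis, was higher in J. procumbens nectaries before and during secretion in the libraries used. J. herrerae had 19, 23 and 13 TPM before, 13, 21 and 22 TPM during and 36, 45 and 116 TPM after secretion, and 21 and 11 TPM in leaves. J. procumbens had 704, 442 and 143 TPM before, 210 and 262 TPM during and 58 and 82 TPM after secretion, and 18 and 21 TPM in leaves. The species did not overlap before and during secretion, and overlapped after it and in leaves.

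J. herrerae was below J. procumbens for SWEET1 by a log2 difference of -3.41 before secretion (SE 0.53, adjusted p = 7.98e-05 from limma, n = 3 and 3) and -2.59 during it (SE 0.60, adjusted p = 0.00208, n = 3 and 2). After secretion the difference was 0.28 (95% interval -0.99 to 1.55, adjusted p = 0.727), and -0.56 over all 23 libraries (0.692). The first pair had an adjusted p of 0.0659 and 0.0854 over all 23 libraries. In J. procumbens, secretory nectaries were 3.10 above leaves (SE 0.65, adjusted p = 0.000802 from limma, 0.0889 with all 23 libraries). SWEET1 fell by 2.14 there after secretion (SE 0.65, adjusted p = 0.0174), a call lost without secretory A (0.0584), secretory B (0.0878) or post-secretory B (0.0943) and with all 23 libraries (0.636). In J. herrerae the same change was 0.73 (adjusted p = 0.256), or 1.60 on TPM as deposited, where it was called higher (0.00762). The species difference in this change was 2.87 (SE 0.84, adjusted p = 0.0256 from limma). It was lost without J. herrerae secretory A (0.0536) or post-secretory C (0.0592), without J. procumbens secretory A (0.061), secretory B (0.0855) or post-secretory B (0.0962) and with all 23 libraries (0.538).

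SWEET17, the vacuolar fructose carrier, was a leaf gene in both species. It stood at 36 and 21 TPM in J. herrerae leaves and 5 and 10 TPM in J. procumbens leaves, against 0 to 1 TPM in J. herrerae nectaries and 0 to 3 TPM in J. procumbens nectaries. Secretory nectaries were called lower than leaves in J. herrerae (adjusted p = 1.15e-07 from limma), where all secretory libraries were listed at 0. In J. procumbens they were lower by a log2 change of -2.72 (SE 0.48, adjusted p = 0.000183, 0.0615 with all 23 libraries). J. herrerae leaves were 2.06 above J. procumbens leaves (SE 0.48, adjusted p = 0.00309), a call lost without J. procumbens leaf B (0.0535) and with a pseudocount of 0.1 (0.212). SWEET2, a vacuolar carrier that holds sugar in Arabidopsis roots, was listed at 0 in the 9 J. procumbens libraries used and at 0 to 2 TPM in J. herrerae. It passed the filter on low values through J. herrerae alone, so no test between the species is given. Single libraries also moved calls at these levels. SWEET17 was called lower at the start of secretion in J. herrerae without pre-secretory B (0.0162 against 0.0955 with it). Its change at the end was 0.92 (0.0541) and was called by limma without J. herrerae pre-secretory A (0.0466) or B (0.0269). It was also called on TPM as deposited (0.0328), with a pseudocount of 0.1 (0.0157) and with the compared groups alone (0.00787). Without J. procumbens leaf B or C it was 0.92 and 0.93. SWEET2 was called higher at the start without J. herrerae pre-secretory C (0.0256 against 0.0687). Its zeros in J. procumbens enter its spread without variation, so these p-values can be too small.

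**Figure D3:**
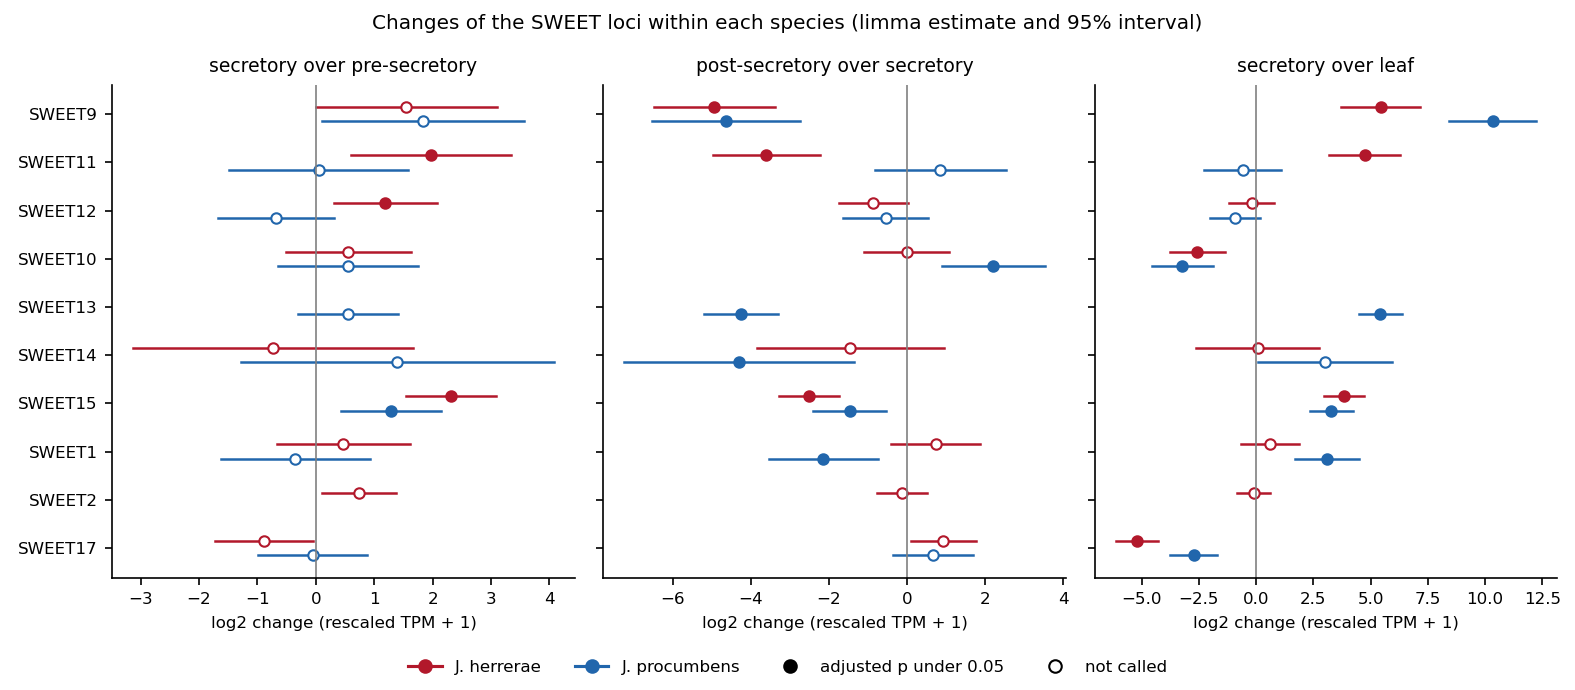
Log2 changes of the members within each species (horizontal axis, rescaled TPM + 1), with J. herrerae in red and J. procumbens in blue. Points are limma estimates, lines are 95% intervals, and filled points are called at an adjusted p under 0.05. A member listed at 0 in both groups of a comparison has no point. SWEET9 and SWEET15 lie below 0 after secretion and above 0 against leaf in both species, while SWEET10 and SWEET17 lie below 0 against leaf.

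Within a species, counts and medians cover all 10 members, including those listed at 0 in every library used. These are SWEET13 in J. herrerae and SWEET2 in J. procumbens, whose change there was 0 and could not be called. Calls of SWEET13 in J. procumbens are counted, although it passed the filter on low values through that species alone. Counted over the members at the start of secretion, 3 of 10 were called higher and 0 lower in J. herrerae (SWEET11, SWEET12 and SWEET15), where 15.4% of all loci were called higher and 18.1% lower. The count was 1 without pre-secretory A or without secretory B, 1 with all 23 libraries and 1 on TPM as deposited. In J. procumbens 1 was called higher (SWEET15) and 0 lower, where 17.3% of all loci were called higher and 18.3% lower. The J. procumbens count was 0 with all 23 libraries, with the compared groups alone and without pre-secretory B or D or secretory A or B, and 2 without pre-secretory C. At an unadjusted p under 0.05, limma had 5 higher and 1 lower in J. herrerae, where 43.5% of all loci passed in either direction, and 2 higher and 0 lower in J. procumbens, where 45.8% did. Their median log2 change was 0.65 in J. herrerae (-0.04 over all loci) and 0.30 in J. procumbens (0.00 over all loci). For the difference between species in this change 0 of 10 were called by limma, with 6.55% of all loci called higher and 6.75% lower, and at an unadjusted p under 0.05 there was 1 member higher and 0 lower, with 30.1% of all loci in either direction. SWEET12 was called for it without J. herrerae post-secretory C (1.86, 0.0308), without J. procumbens post-secretory B (1.84, 0.0485) or C (1.85, 0.0479) and with the compared groups alone (0.0374).

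At the end of secretion 0 members were called higher and 3 lower in J. herrerae (SWEET9, SWEET11 and SWEET15), with 32.9% of all loci called higher and 25.5% lower (1 higher and 3 lower at an unadjusted p under 0.05, which 62.5% of all loci passed in either direction). In J. procumbens 1 was called higher (SWEET10) and 5 lower (SWEET9, SWEET13, SWEET14, SWEET15 and SWEET1), with 21.4% of all loci called higher and 16.9% lower. The J. procumbens count was 0 over all 23 libraries, 3 without secretory A and 2 without secretory B. The median log2 change was -0.50 in J. herrerae (0.12 over all loci) and -1.01 in J. procumbens (0.06 over all loci). In the difference between species, leaving out SWEET13, whose term only restates the fall in J. procumbens, 1 was called higher (SWEET1) and 1 lower (SWEET11), with 9.98% of all loci called higher and 10.9% lower. Neither was called over all 23 libraries.

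Against leaf, 3 members were called higher in J. herrerae secretory nectaries (SWEET9, SWEET11 and SWEET15) and 2 lower (SWEET10 and SWEET17), with 24.6% of all loci called higher and 33.1% lower. In J. procumbens 4 were called higher (SWEET9, SWEET13, SWEET15 and SWEET1) and 2 lower (SWEET10 and SWEET17), with 26.9% of all loci called higher and 32.6% lower. The fit of all 23 libraries called 4 in J. herrerae (SWEET9, SWEET11, SWEET15 and SWEET17) and 2 in J. procumbens (SWEET9 and SWEET15). The shares of members called were thus near the background in several comparisons, and these counts are a description of the 10 loci.

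Between the species, counts are over the 8 members detected in both, since SWEET13 and SWEET2 passed the filter on low values through 1 species and had to differ. The shares of all loci given beside them are over all 13075 loci tested, including any listed at 0 in 1 species. Before secretion J. herrerae was called higher than J. procumbens for 1 member (SWEET11) and lower for 2 (SWEET12 and SWEET1), with 24.7% of all loci called higher and 23.8% lower. During secretion 2 were called higher (SWEET11 and SWEET15) and 1 lower (SWEET1), with 24.2% and 24.3% of all loci. After secretion 1 was called higher (SWEET11) and 1 lower (SWEET10), with 23.7% and 22.9% of all loci. In leaves 3 were called higher (SWEET9, SWEET11 and SWEET17) and 0 lower, with 20.7% and 18.3% of all loci (5 higher and 0 lower at an unadjusted p under 0.05, which 47.4% of all loci passed in either direction). SWEET11 was the member called higher in all 4 tissues. Over all 23 libraries 1 of the 8 was called in each tissue, and after secretion the count was 1 without J. herrerae post-secretory B or C or J. procumbens post-secretory B or C.

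**Figure D4:**
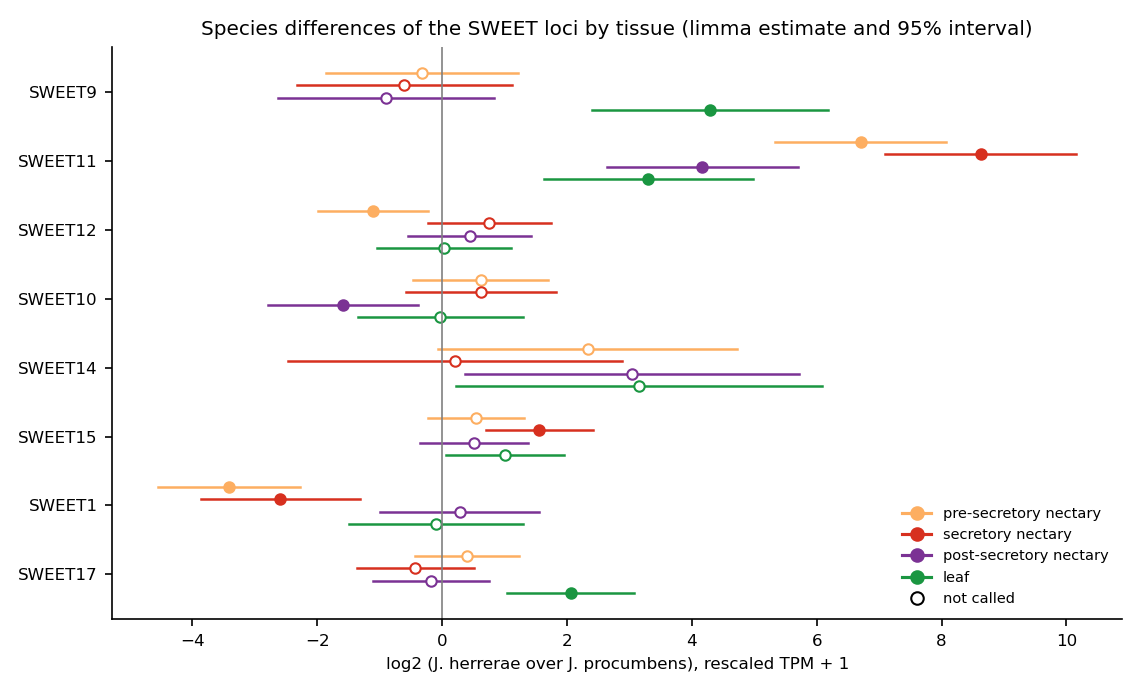
Differences between the species by tissue (horizontal axis, log2 of J. herrerae over J. procumbens on rescaled TPM + 1) for the 8 members detected in both species. Points are limma estimates, lines are 95% intervals, and open points are not called. SWEET11 lies above 0 in all 4 tissues, at 3.30 to 8.63, SWEET1 lies below 0 before and during secretion, and SWEET9 departs from 0 only in leaf, at 4.29.

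Of the 7 other SWEET loci, 4 had a row (SWEET4, SWEET5, SWEET7 and SWEET16). For these and the lists below, only the fit of the 20 libraries is given, so the dependence of their calls on single libraries is not shown. At the end of secretion in J. procumbens, limma had 6131 loci at an unadjusted p under 0.05 with 20 libraries and 1611 with all 23. SWEET7, a hexose carrier, was the most abundant. It averaged 553 ± 288, 254 ± 172 and 146 ± 17.1 TPM before, during and after secretion in J. herrerae, and 35.5 TPM in leaves. In J. procumbens nectaries it averaged 534 ± 117, 41.5 and 37 TPM, and 1 TPM in leaves (mean ± SD for n = 3, means alone for n = 2). At the start of secretion it fell by 3.38 in J. procumbens (adjusted p = 0.000129 from limma) and changed by -0.70 in J. herrerae (adjusted p = 0.116). During secretion J. herrerae was 3.43 above J. procumbens (adjusted p = 1.84e-06). SWEET16, a vacuolar carrier, was listed at 0 in all J. herrerae libraries and averaged 30.5 TPM in J. procumbens leaves.

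Of 12 loci for making and splitting sucrose, 11 had a row. At the start of secretion limma called 1 higher (SUS3) and 0 lower in J. herrerae, and 2 higher (VI1 and SUS3) and 1 lower (SPS4F) in J. procumbens. Of all loci, 15.4% were higher and 18.1% lower in J. herrerae, and 17.3% higher and 18.3% lower in J. procumbens. At its end 0 were called higher and 6 lower in J. herrerae (32.9% and 25.5% of all loci), and 0 higher and 5 lower in J. procumbens (21.4% and 16.9%). Against leaf 6 were called higher and 2 lower in J. herrerae secretory nectaries (24.6% and 33.1% of all loci), and 8 higher and 1 lower in those of J. procumbens (26.9% and 32.6%). SPS1F, a sucrose phosphate synthase, averaged 276 ± 58.2 TPM in J. herrerae secretory nectaries against 48.5 TPM in leaves, and 106 TPM in J. procumbens secretory nectaries against 20.5 TPM in leaves. CWINV2, a cell wall invertase, averaged 756 ± 234 against 37 TPM in J. herrerae, and 1616 against 27.5 TPM in J. procumbens. CWINV4, the cell wall invertase that Arabidopsis needs for nectar, averaged 140 ± 119 TPM in J. herrerae secretory nectaries and 3600 TPM in those of J. procumbens, a difference of -4.00 that was not called (adjusted p = 0.096).

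Of 9 other sugar carriers, 6 had a row, all with group means of at most 86 TPM. After secretion limma called 3 higher (SUC2, STP1 and STP13) and 2 lower (SUC4 and TMT2) in J. herrerae, with 32.9% of all loci called higher and 25.5% lower. In J. procumbens 4 were called higher (SUC2, SUC4, STP1 and STP13) and 0 lower, with 21.4% and 16.9% of all loci. STP1, which takes up monosaccharides with protons, averaged 9.67 ± 5.51 TPM in J. herrerae post-secretory nectaries against 0.667 ± 0.577 TPM in secretory ones (log2 change 2.17, adjusted p = 0.00141). Its J. procumbens means were 41 against 1.5 TPM (3.47, adjusted p = 0.000464). The phloem loader SUC2 averaged 86 TPM in J. herrerae leaves and 24.5 TPM in J. procumbens leaves.

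Across the 20 libraries, the locus whose log2 level was most like that of SWEET9, of 10114 compared, was CRC (Pearson r = 0.956). The next was the sucrose synthase SUS4 (r = 0.955), and CWINV2 was the 26th (r = 0.923). SWEET15 reached 0.803 with SWEET9, SWEET11 reached 0.249, and SWEET10 was at -0.701. The loci most like SWEET11 were AT1G02920 (r = 0.970) and AT2G21190 (r = 0.966), which have no name in the sources used here. The locus most like SWEET1 was AT1G15490 (r = 0.960), and SWEET13 was the 7th (r = 0.868). Most like SWEET14 was AT4G15840 (r = 0.828). These values describe 8 groups of tissue and species, share their libraries and rescaling, and carry no test.

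**Figure D5:**
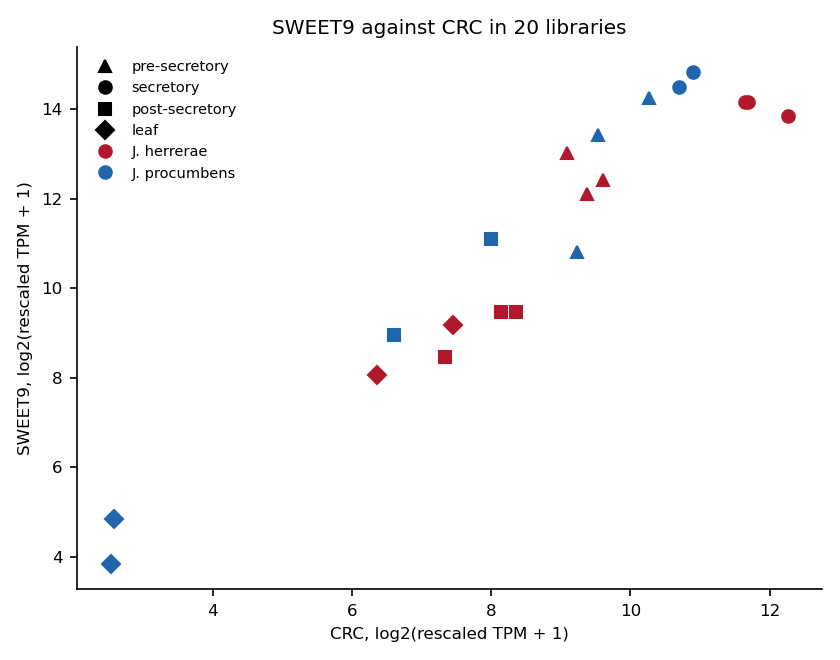
SWEET9 against CRC in the 20 libraries, both as log2(rescaled TPM + 1), with stages as symbols and species as colours (J. herrerae red, J. procumbens blue). Both loci are highest in secretory nectaries, and J. herrerae leaves (diamonds) lie beside the post-secretory nectaries while J. procumbens leaves lie lowest on both axes.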

How the data were processed

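RNA was sequenced as stranded TruSeq libraries with 150 bp paired reads, per the labels' protocols, and kallisto 0.46.1 is the tool in the submitters' processing notes. The authors deposited a score, TPM rounded to whole numbers, for 13170 Arabidopsis loci in 23 libraries, of 24 in the labels. Its reference and its way of assigning transcripts to loci are unknown here. Libraries listed 542947 to 779099 TPM in all, with 11331 to 12449 loci at 1 TPM or more (20 libraries).

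The 20 libraries were divided by median-ratio size factors (0.45 to 1.65, from 9613 loci above 0 in all). The filter asked for 1 TPM or more in 2 or more libraries. Tests used log2(value + 1) in limma 3.58.1 (R 4.3.3), with group means, a trended prior variance and Benjamini-Hochberg adjustment over 13075 loci in each of 12 comparisons. A fold change on this scale understates changes of low loci. The steps were run on simulated data with changes planted at the start of secretion, in loci away from the lowest levels. That run does not cover low loci, loci at 0 in a species or differences between the species. Tables and figures were made in Python 3.11.15 with pandas 2.3.3, numpy 2.4.6 and matplotlib 3.10.9.

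All 10 members are named. For members reaching a group mean of 100 TPM, the most similar loci (mean of at least 5 TPM) were ranked by Pearson r, and named by symbol or at most 2 identifiers. Symbols come from the lists. Members, lists, libraries left out and tests were chosen with earlier results of these data known. Alternatives were no rescaling, no filter, a stricter one (mean of 5 TPM or more), a pseudocount of 0.1, all 23 libraries, a replicate block, fits of only the groups compared, and each library left out in turn. No sequences are printed.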

Additional observations from a re-analysis of the deposited data

Results flagged for a closer look

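The library labelled J. procumbens pre-secretory A, one of the 3 left out, stood apart from the other 3 libraries of its label for 3 members. SWEET11 was at 598 TPM in it against 20 to 55 TPM in the others, SWEET10 at 121 against 5 to 7 TPM, and SWEET2 at 2 against 0 TPM. In each case its gap to the nearest library was most or all of the range of the 4. About 1 in 20 such groups is marked by chance if the values are normally spread. For SWEET2, with the others at 0, any value above 0 is marked, so that share does not apply. SWEET9 was at 201 TPM in that library, against 2904 to 26019 TPM in the others.

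The change of 2 members at the end of secretion differed between J. herrerae and J. procumbens by the test of the difference itself. The difference was -4.46 for SWEET11 (adjusted p = 0.00662 from limma), which fell in J. herrerae and was not called in J. procumbens. It was 2.87 for SWEET1 (adjusted p = 0.0256), which fell in J. procumbens and was not called in J. herrerae. With all 23 libraries neither was called by limma (0.159 for SWEET11 and 0.538 for SWEET1). SWEET13, at 0 throughout J. herrerae, is left out of this comparison.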

How the results depend on the processing

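Counts here cover all 10 members and include SWEET13 and SWEET2, which had to differ between the species. Of the 44 member calls, 40 stood on TPM as deposited, 41 with a pseudocount of 0.1, 44 without a filter, 43 with the compared groups alone and 18 with all 23 libraries. No call changed sign in these settings. TPM as deposited moved the median log2 change of all loci most for J. herrerae against J. procumbens during secretion, to -0.84 against 0.00 with rescaling.

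At the start of secretion the count called was 1 in J. herrerae on TPM as deposited and with all 23 libraries, and 1 to 4 with 1 library left out. In J. procumbens it was 0 with all 23 libraries and with the compared groups alone, and 0 to 2 with 1 library left out. For the species difference in this change it was 1 with the compared groups alone and 0 to 1 with 1 library left out. At the end of secretion it was 5 in J. herrerae on TPM as deposited (3 to 4 with 1 library left out) and 0 in J. procumbens with all 23 libraries (2 to 6 with 1 left out). For the species difference it was 0 with all 23 libraries and 2 to 4 with 1 left out. Against leaf it was 5 in each fit on J. herrerae with 1 library left out and 6 to 7 in J. procumbens, where all 23 libraries gave 2. Between the species it was 2 before, 3 during and 2 after secretion and 2 in leaf with all 23 libraries, and 2 in leaf with a mean TPM of at least 5, which removes the lowest members. With 1 library left out it was 3 to 4, 5, 2 to 5 and 3 to 5. A library left alone in its group took its spread from the rest of the fit.

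Deviations of same-letter libraries correlated at -0.13 to 0.13 in J. herrerae and -0.36 to 0.14 in J. procumbens. Those of different-letter libraries correlated at -0.26 to 0.19 and at -0.31 to 0.36. In J. procumbens the letters of post-secretory B and C run against the submitters' library numbers. Deviations in a group of 2 libraries mirror each other, so these values cannot decide whether libraries were paired. With the letter as a replicate block 37 of the 44 calls stood, and J. procumbens had 0 members called at the start and 3 at the end of secretion. That limma fit lost 7 calls. For SWEET12 these were the J. herrerae start (0.0582) and the species difference before secretion (0.0967). For SWEET10 they were the J. procumbens end (0.106) and the species difference after secretion (0.0981). The others, in J. procumbens, were the SWEET14 end (0.135) and the SWEET15 start (0.249) and end (0.0845). The same limma fit gained 2 calls, both of SWEET14 in J. herrerae against J. procumbens. They were 3.54 after secretion (0.0499) and 4.09 in leaves (0.0423). Depth is not known from TPM, and rounding limits SWEET2, SWEET12 and SWEET17. The cause of these shifts was not tested.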
